A study of Mus musculus with 17 samples.

Results

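Complement components and receptors, 9 of the 21931 genes in the count table, were followed in 17 distant MC38 tumors of mice. They were picked by name, without use of their values, and are C1qa, C1qb, C1qc, C3, C4b, Cfb, Serping1, C3ar1 and C5ar1. Of the 9, 8 passed the filter on low counts and were among the 13005 genes tested, and Cfb did not pass. MC38 is a mouse colon cancer line. The cells, labelled WT, were placed subcutaneously in both flanks of C57BL/6J mice that were 6 to 8 weeks old. Mice of the cryoablation group had 1 of their tumors frozen on day 7 after implantation, in 2 freezing cycles of 20 s by the labels (the study's methods give a longer cycle), and the opposite tumor, which was never frozen, was taken on day 5 after freezing. The control group carried the same tumors and was not frozen, and its labels give the same day. The groups held 9 control and 8 cryoablation tumors by the labels and the column names, whereas the study's text gives the sizes the other way round, so every direction below rests on the labels. The labels do not tie a tumor to a mouse or a cage, so the p values measure the spread between these tumors. The comparison asks whether freezing 1 tumor altered complement transcripts in the tumor left in place.

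Complement is a cascade of blood and tissue proteins that marks targets and calls in phagocytes. In the classical pathway, C1q binds antibody or dying cells, and its proteases cleave C4 and C2. Fragments of C4 and C2 form a convertase that cleaves C3. In the alternative pathway factor B joins C3b to form a convertase that cleaves more C3. The small fragments C3a and C5a act on receptors of myeloid cells. Liver makes most plasma complement, whereas C1q in tissue comes mainly from macrophages, and tumor-infiltrating macrophages are known for high C1q.

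Each control tumor had 14154687 to 17898672 counts in all, and each cryoablation tumor 13524899 to 16847050. Levels are given as TMM-normalized CPM, counts scaled to a common library size. Tumors cryoablation 2, 4 and 5 stood apart from the rest. Their scores on the first principal component, which held 64.0% of the variance of the 500 most variable genes, were 25.5, 31.5 and 31.3, and the other 14 tumors lay between -16.7 and 9.52. In the same 3 tumors short genes were read more and long genes less: log2 CPM fell by 0.30, 0.27 and 0.39 per doubling of gene length, relative to the mean of all tumors, and this trend ran from -0.17 to 0.23 in the other 14. Results are therefore also given without these 3 tumors and with the length trend removed. Macrophage markers were present in every tumor, with all 12 of 12 listed genes above the filter and a summed level of 567 to 1646 CPM in controls and 574 to 1076 CPM after cryoablation. The hepatocyte list reached at most 2.12 CPM in any tumor, and its defining genes Alb, Apoa1, Ttr and Serpina1a had at most 3 counts in every tumor.

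The 3 chains of C1q lie side by side on chromosome 4 in the order C1qb, C1qc and C1qa, all on the minus strand, at 136607440 to 136613498, 136617115 to 136620376 and 136623228 to 136626114 in the coordinates of the deposited table, whose build could not be settled. Because the chains moved together over the tumors (below), the bases before the start sites of C1qb and C1qc are shown, with that of C3, which did not follow them. The sequences are those of RefSeq for GRCm38.p6, 250 bases before the start, minus strand, 5′ to 3′. Capitals mark matches, on either strand, to a PU.1 motif (GAGGAA) and, for the later one in C1qc, to the NF-kappaB consensus. The regions are C1qb chr4:136886201-136886450, C1qc chr4:136892915-136893164 and C3 chr17:57228137-57228386.
C1qb: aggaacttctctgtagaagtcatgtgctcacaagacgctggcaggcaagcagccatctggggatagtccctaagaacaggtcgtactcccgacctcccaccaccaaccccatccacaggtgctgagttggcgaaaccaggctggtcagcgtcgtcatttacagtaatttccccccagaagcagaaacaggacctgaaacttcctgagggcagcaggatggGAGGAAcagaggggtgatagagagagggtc
C1qc: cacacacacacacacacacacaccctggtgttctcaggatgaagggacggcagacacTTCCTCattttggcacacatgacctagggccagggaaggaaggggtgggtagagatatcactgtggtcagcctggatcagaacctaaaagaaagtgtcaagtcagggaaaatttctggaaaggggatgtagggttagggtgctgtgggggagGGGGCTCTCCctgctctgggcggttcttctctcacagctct
C3: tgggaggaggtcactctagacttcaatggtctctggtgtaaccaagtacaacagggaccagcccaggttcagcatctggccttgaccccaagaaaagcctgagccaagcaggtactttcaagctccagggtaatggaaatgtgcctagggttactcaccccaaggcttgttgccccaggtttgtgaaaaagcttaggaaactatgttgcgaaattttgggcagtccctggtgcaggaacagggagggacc

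PU.1 is a transcription factor of myeloid cells. Its letters lay at positions -30 to -25 of C1qb and at -193 to -188 of C1qc, counted from the start site, and the NF-kappaB match at -41 to -32 of C1qc. They are common, since 28.3% of the 32851 promoters in the table held a PU.1 match and 5.81% an NF-kappaB match in windows reaching from 250 bases before to 50 after the start. Neither the consensus of the interferon-stimulated response element (in 3.44% of all promoters) nor the gamma-activated sequence (TTCNNNGAA, in 8.30%) was matched in C1qb, C1qc, C3, C3ar1 or C5ar1, the 5 members with a promoter in the table. C1qa, C4b, Cfb and Serping1 had none there.

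No difference between the groups passed the test for any of the 8 tested members. By edgeR's quasi-likelihood test 0 of 8 had an unadjusted p under 0.05, where 4.91% of all 13005 genes tested did (639 genes). No gene of the table had an adjusted p under 0.05 by edgeR, by DESeq2 or by limma voom. The lowest unadjusted p among the members was 0.123, for C3. The estimates of the members ran from -0.67 to 0.52 on the log2 scale, with 3 above and 5 below 0, and their median was -0.11 beside -0.01 for all genes tested. In bulk tissue fewer cells of a type and less RNA per cell cannot be told apart, and this holds for every level below.

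C1qa encodes the A chain of C1q, the recognition unit of the classical pathway. Its level was 233 to 666 CPM in controls with a median of 419, and 148 to 1258 CPM after cryoablation with a median of 415. The medians were nearly equal, but the cryoablation tumors were spread more widely. Tumors cryoablation 2, 4 and 5, at 1080, 939 and 1258 CPM, lay above every control, cryoablation 7 at 148 CPM lay below every control, and the other 4 fell inside the control range. The fitted log2 fold change was 0.52 (SE 0.35, adjusted p = 0.728 by edgeR's quasi-likelihood test). The difference of mean log2 CPM was 0.26 (two-sided exact permutation p = 0.522). The coefficient of variation was 32.3% in controls and 68.7% after cryoablation.

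C1qb, the B chain, gave the same picture. It was at 220 to 549 CPM in controls with a median of 361, and at 130 to 1129 CPM after cryoablation with a median of 443. Again cryoablation 2, 4 and 5 exceeded every control, at 900, 566 and 1129 CPM, and 1 tumor, cryoablation 7, was below them all. For C1qb the log2 fold change was 0.41 (SE 0.32, edgeR adjusted p = 0.737) and the difference of mean log2 CPM 0.20 (exact permutation p = 0.604). C1qc, the C chain, was at 163 to 396 CPM in controls with a median of 283, and at 106 to 547 CPM after cryoablation with a median of 292. Its 3 highest tumors were cryoablation 2, 4 and 5, at 547, 483 and 535 CPM. For C1qc the log2 fold change was 0.22 (SE 0.27, edgeR adjusted p = 0.789) and the difference of mean log2 CPM 0.08 (exact permutation p = 0.794).

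The positive C1q estimates rested on those 3 tumors. Without them the log2 fold changes were -0.42 (SE 0.27) for C1qa, -0.30 (SE 0.27) for C1qb and -0.36 (SE 0.24) for C1qc. By this edgeR fit all 8 tested members had an estimate below 0, beside a median of -0.01 for all genes tested. At an unadjusted p under 0.05 there were 0 of the 8 members and 325 of all 13250 genes tested. For C4b the difference of mean log2 CPM was 0.0090 in the same tumors, so its sign depended on the measure. With each tumor's trend over gene length entered as an offset, and all 17 tumors kept, the estimates were 0.07 (SE 0.19), 0.03 (SE 0.18) and 0.03 (SE 0.18). The gene for C1qa spans 1040 exonic bases, C1qb 1088 and C1qc 1931, which makes them the 3 shortest members. After the trend was removed from log2 CPM, C1qa was at 9.34, 9.17 and 9.40 in cryoablation 2, 4 and 5 beside a control range of 8.33 to 9.37, and 1 of these 3 tumors remained above the controls. For C1qb 2 of the 3 remained above them, at 9.10 in cryoablation 2 and 9.27 in cryoablation 5 beside at most 8.97, and for C1qc 2 of the 3, at 8.68 in cryoablation 2 and 8.59 in cryoablation 4 beside at most 8.56. Some marker lists were also higher in the same 3 tumors than in the other 5. The summed epithelial list reached 141, 141 and 215 CPM in these 3, against 16.6 to 96.7 CPM in controls and 9.76 to 61.0 CPM in the other 5. The epidermis list reached 442, 408 and 664 CPM, against 182 to 444 CPM in controls, so only cryoablation 5 exceeded the controls. The macrophage list was at 1002, 863 and 1076 CPM, against 574 to 802 CPM in the other 5, and inside the control range of 567 to 1646 CPM. The part of these lists in the C1q levels was not tested.

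**Figure D1:**
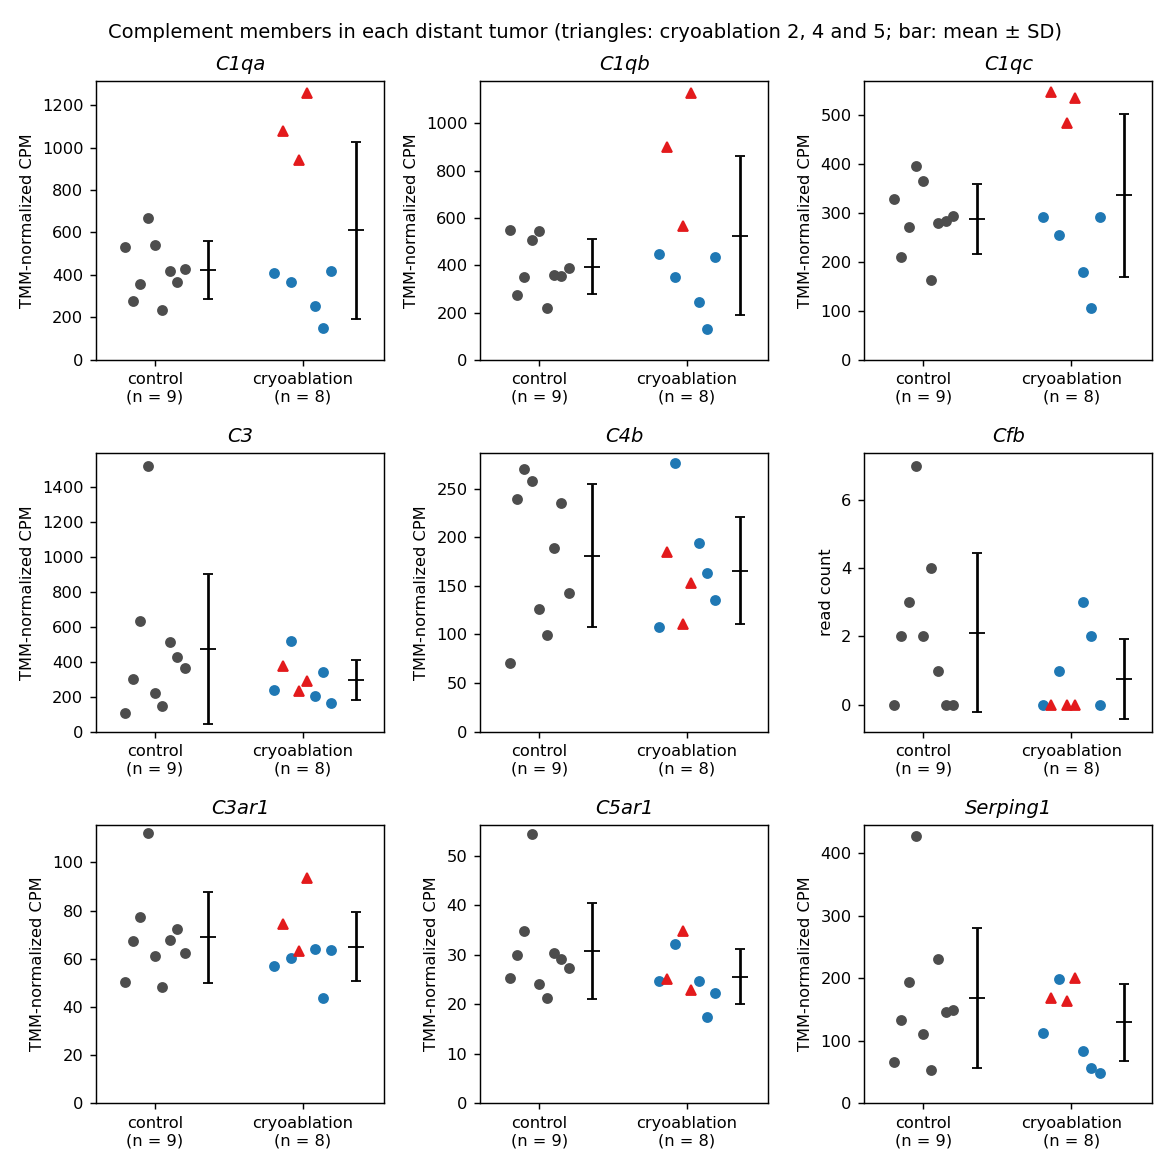
Level of each member in every tumor, by group. The y axis is TMM-normalized CPM, or the read count for Cfb, points are single tumors, red triangles are cryoablation 2, 4 and 5, and the bar to the right of each group is its mean ± SD (n = 9 control, n = 8 cryoablation). The triangles lie above all controls for C1qa, C1qb and C1qc, and the highest control for C3, at 1523 CPM, is control 4.

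C1q levels followed the length trend in both groups, not only in those 3 tumors. The trend was drawn from all genes tested, so short genes as a group follow it by construction. Other genes of like length were not set beside the chains, so the p values below do not mark a relation particular to C1q. Over 17 tumors the level of C1qa and the trend had a Pearson r of -0.93 (permutation p = 1e-05, the smallest that 100000 permutations can give, adjusted p = 2.67e-05 over the 8 members) and a Spearman rho of -0.94. For C1qb and C1qc r was -0.92 and -0.89 and rho -0.99 and -0.95, with the same p values by permutation. Leaving out the 2 tumors with the most extreme trend gave an r of -0.88, -0.85 and -0.84 for the A, B and C chains. Since cryoablation 2, 4 and 5 form a separate cluster, the values without them matter more, and r was then -0.82 for C1qa, -0.87 for C1qb and -0.80 for C1qc. Within the 9 controls alone r was -0.80, -0.91 and -0.77. For the longest members r was 0.16 for C3 (5143 bases, rho 0.14, adjusted permutation p = 0.623) and 0.37 for C4b (5695 bases, rho 0.41, adjusted permutation p = 0.286). C3ar1, C5ar1 and Serping1 had an r of -0.34, -0.02 and -0.25 (rho -0.26, -0.05 and -0.29), with adjusted permutation p values of 0.286, 0.947 and 0.439.

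**Figure D2:**
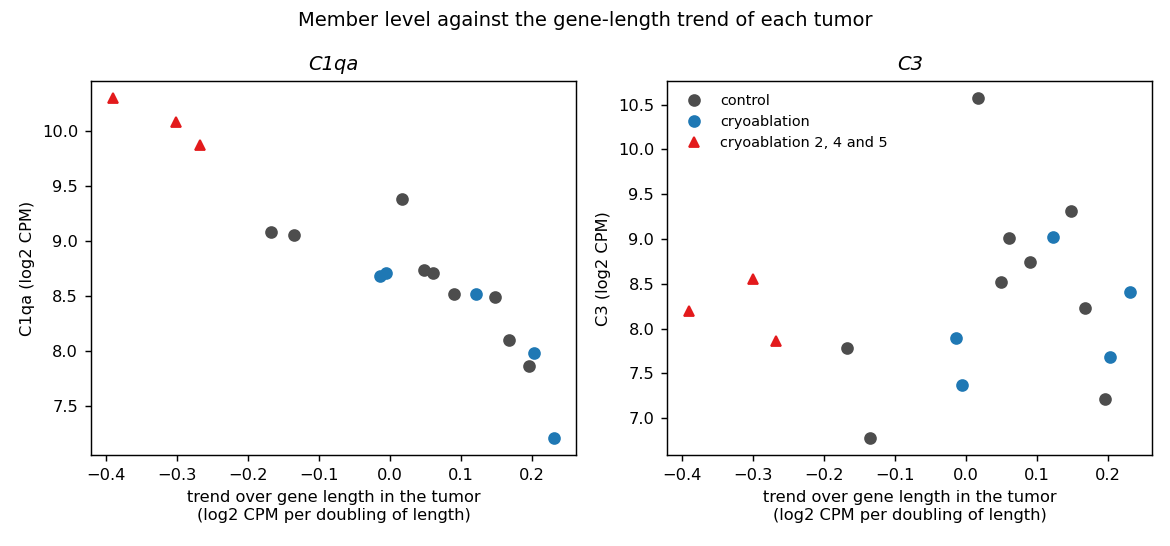
Level of C1qa (left) and C3 (right) as log2 CPM against the slope of log2 CPM over gene length in each tumor. Each point is 1 of 17 tumors, and red triangles are cryoablation 2, 4 and 5. C1qa falls along the slope in both groups (r = -0.93 in all, -0.80 within controls), and C3 does not (r = 0.16).

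A C1q molecule holds the A, B and C chains in equal numbers, so the ratios of the transcripts were also compared. Per kb of exon, C1qa was 1.12 ± 0.11 times C1qb in controls (SD, n = 9) and 1.18 ± 0.24 times after cryoablation (SD, n = 8). C1qa was 2.70 ± 0.25 times C1qc in controls and 3.10 ± 0.68 times after cryoablation. The second ratio was 3.66, 3.61 and 4.37 in cryoablation 2, 4 and 5, above the control range of 2.40 to 3.12, and 2.59 to 2.67 in the other 5. C1qa is shorter than C1qc (1040 and 1931 exonic bases), and short genes were read more in those 3 tumors. Levels per kb do not remove that trend, and its part in this ratio was not tested. No difference of the 3 chain ratios between the groups passed a two-sided exact permutation test (p = 0.588 for C1qa over C1qb, p = 0.130 for C1qa over C1qc and p = 0.285 for C1qb over C1qc). Between the lowest and the highest tumor C1qa itself differed 8.51-fold, while its ratio to C1qb ran from 0.96 to 1.73.

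C4b encodes complement C4, which activated C1 cleaves. It was at 71.0 to 269.9 CPM in controls with a median of 189, and at 108 to 277 CPM after cryoablation with a median of 158. The ranges overlapped almost whole, and 6 of 8 cryoablation tumors were below the control median. Its log2 fold change was -0.13 (SE 0.25, edgeR adjusted p = 0.852) and the difference of mean log2 CPM -0.06 (exact permutation p = 0.827). Its near copy C4a is not in the table under that symbol, and 35.2% of the 50-base windows of the C4b transcript also occur in C4a, so the C4b level is uncertain by whatever the counting did with such reads.

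C3, the protein on which the pathways converge, had the largest negative estimate of the members. It was at 109 to 1523 CPM in controls with a median of 366, and at 165 to 521 CPM after cryoablation with a median of 265. Every cryoablation tumor lay inside the control range, and 6 of 8 lay below the control median. The C3 estimate was -0.67 on the log2 scale (SE 0.42, edgeR adjusted p = 0.728). One tumor set much of it, since without control 4, the highest at 1523 CPM, the value was -0.21 (SE 0.32). The difference of mean log2 CPM with all tumors was -0.34 (exact permutation p = 0.469). Control 4 also had the highest summed macrophage (1646 CPM), T cell (107 CPM), B cell (63.0 CPM), dendritic cell (57.0 CPM) and neutrophil (68.7 CPM) lists of all tumors, and likewise the highest fibroblast (13341 CPM), endothelium (189 CPM) and acute phase (983 CPM) lists, and the part of these cells in its C3 level was not tested. The C3 estimate did not depend on cryoablation 2, 4 and 5, without which it was -0.69 (SE 0.52), nor on gene length, with an offset for which it was -0.58 (SE 0.39).

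Cfb encodes factor B, the C3b partner of the alternative pathway. It was barely detected, with 0 to 7 counts per tumor and 25 counts over all 17 tumors. It was at 0 counts in 3 of 9 control and 5 of 8 cryoablation tumors, including cryoablation 2, 4 and 5, and a count of 0 allows up to 0.152 to 0.289 CPM, counting error only. This level is uncertain, because 79.5% of the exonic bases of Cfb are shared on the same strand with the annotated locus Gm20547, which itself had 0 counts in every tumor, and how such reads were counted is not given in the sources used here. C2, the classical pathway homolog of factor B, shares 42.8% of its exonic bases with the same locus.

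Serping1 encodes C1 inhibitor, which blocks the proteases of the C1 complex. It was at 53.0 to 427 CPM in controls with a median of 146, and at 48.6 to 199.8 CPM after cryoablation with a median of 138. The highest tumor was again control 4, at 427 CPM, the lowest was cryoablation 8, just below every control, and the tumors between them overlapped. Its log2 fold change was -0.38 (SE 0.38, edgeR adjusted p = 0.768), and without control 4 it was -0.08 (SE 0.33). Without cryoablation 2, 4 and 5 it was -0.75 (SE 0.45), and limma voom with all tumors gave -0.73 (SE 0.33). The difference of mean log2 CPM was -0.30 (exact permutation p = 0.480).

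C3ar1 and C5ar1 encode the receptors for C3a and C5a. Of the 8 tested members C3ar1 differed least between the lowest and the highest of the 17 tumors, by 2.56-fold. It was at 48.4 to 112 CPM in controls with a median of 67.6, and at 43.8 to 93.5 CPM after cryoablation with a median of 63.5. The groups overlapped, and the log2 fold change was -0.09 (SE 0.16, edgeR adjusted p = 0.844, and exact permutation p = 0.671 for a difference of mean log2 CPM of -0.07). C5ar1 was at 21.3 to 54.4 CPM in controls with a median of 29.1, and at 17.5 to 34.8 CPM after cryoablation with a median of 24.7. For both receptors cryoablation 7 was the lowest tumor, below every control. For C5ar1 6 of 8 cryoablation tumors were below the control median, and the log2 fold change was -0.27 (SE 0.17, edgeR adjusted p = 0.728, and exact permutation p = 0.175 for a difference of mean log2 CPM of -0.25). Control 4 was the highest tumor for both receptors, at 112 CPM for C3ar1 and 54.4 CPM for C5ar1. Without it the log2 fold change was 0.03 (SE 0.14) for C3ar1 and -0.13 (SE 0.14) for C5ar1, so the sign of the C3ar1 estimate depended on this tumor. Without cryoablation 2, 4 and 5 the values were -0.26 (SE 0.17) for C3ar1 and -0.35 (SE 0.20) for C5ar1.

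**Figure D3:**
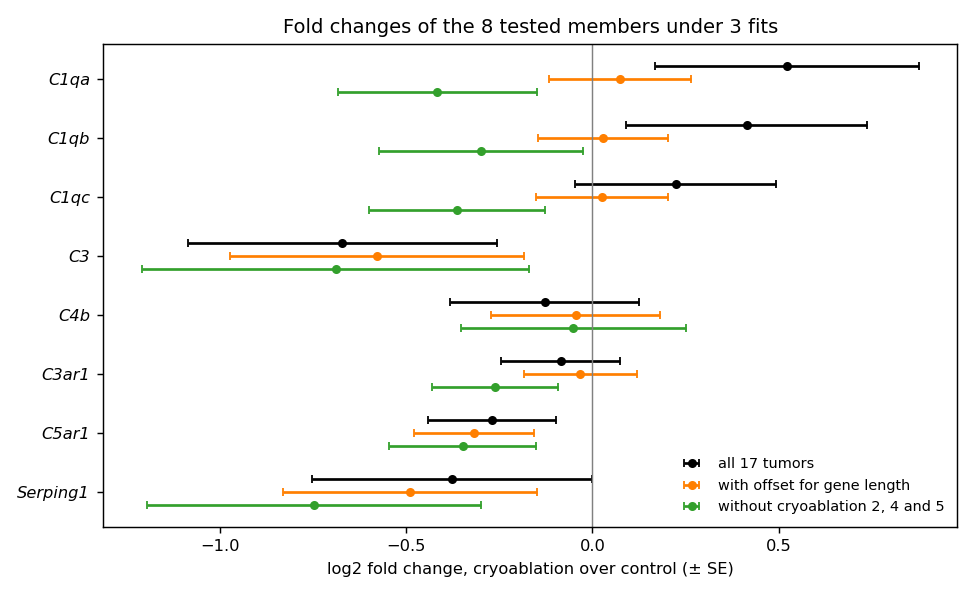
Log2 fold change, cryoablation over control, of the 8 tested members with its SE (bars), from edgeR's quasi-likelihood fit on all 17 tumors (black), with an offset for gene length (orange) and without cryoablation 2, 4 and 5 (green). The C1qa estimate moves from 0.52 to 0.07 and -0.42, and the C3 estimate stays between -0.58 and -0.69.

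Levels were compared between members per kb of exon, over all 17 tumors. C1qa stood at 492 ± 296 CPM per kb (SD, n = 17) and exceeded 99.3% of genes tested. C1qb followed at 419 ± 226 and C1qc at 161 ± 64.1 CPM per kb. Then came C3 at 75.6 ± 63.3, Serping1 at 64.4 ± 39.2 and C4b at 30.5 ± 11.2 CPM per kb. The receptors were lowest of the tested members, with C3ar1 at 15.6 ± 3.83 and C5ar1 at 11.01 ± 3.21 CPM per kb, the last above 64.6% of genes. Per kb, the means of the C1q chains were thus above those of C3 and C4b, with C1qc above C3 in 15 of 17 tumors. In controls alone the means were 408 CPM per kb for C1qa, 149 for C1qc and 91.7 for C3. This order depends on the division by length. In plain CPM the control medians were 419 for C1qa, 283 for C1qc and 366 for C3. In paired comparison within tumors all neighbours in the per kb order but C3 and Serping1 differed (two-sided exact sign-flip permutation p from 1.53e-05 to 1.98e-04). C3 was higher than Serping1 in 12 of 17 tumors (two-sided exact sign-flip permutation p = 0.218). The order was taken from the levels in the same tumors, so these p values do not test it independently. They also rest on the division by length. The value 1.53e-05 is the smallest that this exact sign-flip permutation test can give with 17 tumors. C1qa exceeded C1qb in 16 of 17 tumors by a mean of 0.19 on the log2 scale. C1qb exceeded C1qc in 17 of 17 tumors, by 1.32.

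By how they varied over tumors, the C1q chains stood apart from C3 and C4b, and the receptors and Serping1 lay between. The C1q chains moved together, with a Pearson r of log2 CPM of 0.97 for C1qa and C1qb, 0.98 for C1qa and C1qc and 0.97 for C1qb and C1qc (permutation p = 1e-05 each, the smallest possible, adjusted p = 9.33e-05 over 28 pairs). Spearman's rho for these pairs was 0.96, 0.97 and 0.98. Without cryoablation 2, 4 and 5 r was 0.97, 0.99 and 0.98. All of them are read by the same libraries, so depth and the length trend are shared between the points.

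C3, C4b, Serping1 and the receptors were also related, all of their 10 pairs but C4b with C5ar1 (r = 0.49, adjusted permutation p = 0.0664) having an adjusted permutation p under 0.05 for r. By rank C4b with C5ar1 (rho 0.55, adjusted permutation p = 0.0538) did not pass, nor did C3 with C3ar1 (rho 0.55, adjusted permutation p = 0.0538). The same held for C3ar1 with C5ar1 (rho 0.48, adjusted permutation p = 0.107). C3 had an r of 0.83 with Serping1 (rho 0.79, permutation p = 4.00e-05, adjusted p = 2.80e-04) and of 0.80 with C4b (rho 0.81, permutation p = 1.50e-04, adjusted p = 6.00e-04). Leaving out the 2 tumors with the most extreme C3 left these at 0.74 and 0.76. Serping1 had an r of 0.80 with C3ar1 (rho 0.69, adjusted permutation p = 6.00e-04) and of 0.81 with C5ar1 (rho 0.72, adjusted permutation p = 2.80e-04). The C1q chains were not related to C3 or C4b in this way: r between C1qa and C3 was 0.11 (rho 0.06, permutation p = 0.670), and between C1qa and C4b -0.13 (rho -0.21, permutation p = 0.611). C3ar1 had an r of 0.60, 0.57 and 0.63 with C1qa, C1qb and C1qc (adjusted permutation p of 0.0251, 0.0352 and 0.0205), but the rank correlations did not pass (rho 0.41, 0.35 and 0.43, adjusted permutation p of 0.179, 0.245 and 0.168), and without the 2 tumors of most extreme C1q level r was 0.34, 0.25 and 0.49. Serping1 had an r of 0.56 with C1qc (adjusted permutation p = 0.0356, rho 0.40 with 0.179) and of 0.52 with C1qa (adjusted permutation p = 0.0517, rho 0.50 with 0.0901). Of the 28 pairs, 16 had an adjusted permutation p under 0.05 for r.

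Among C3, C4b, Serping1 and the receptors r was higher in controls than in cryoablation tumors. For C3 and C3ar1 r was 0.96 within the 9 controls and -0.05 within the 8 cryoablation tumors. For C3 and C5ar1 these values were 0.91 and 0.17, for C4b and C3ar1 0.82 and 0.03, and for C3ar1 and C5ar1 0.96 and 0.26. C3 and Serping1 stayed positive in both, at 0.97 and 0.57. The difference of r between the groups was not tested. Controls had the wider range of C3, up to control 4. Without the 2 tumors of most extreme C3 the pooled r of C3 with C3ar1 was 0.36, so that relation rested largely on them.

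**Figure D4:**
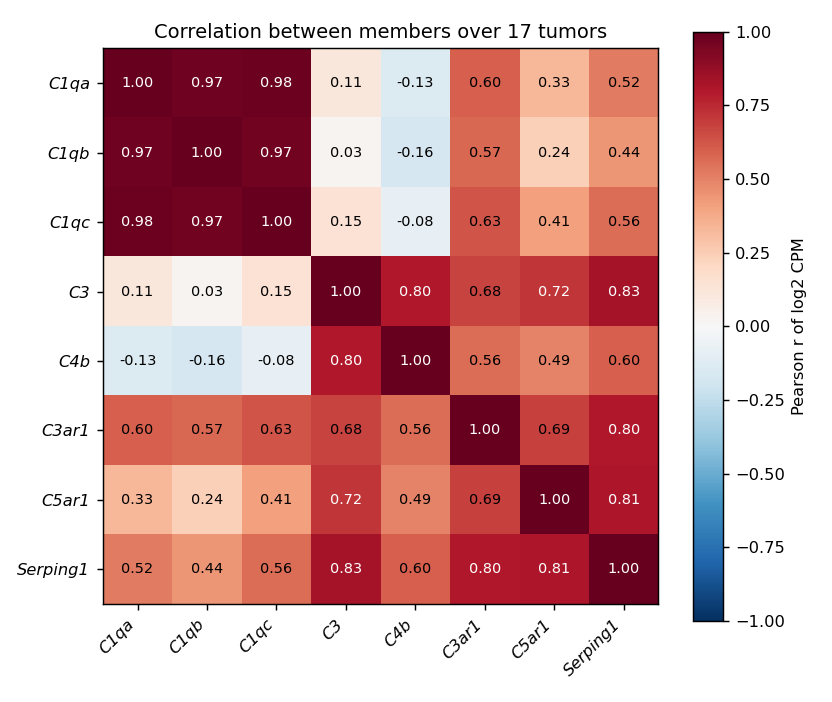
Pearson r of log2 CPM over 17 tumors between each pair of the 8 tested members, with red for positive and blue for negative values. C1qa, C1qb and C1qc form a block with r of 0.97 to 0.98, and C3 is near 0 with all of them and at 0.68 to 0.83 with C4b, the receptors and Serping1.

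The levels were set beside summed marker lists of cell types and responses, in 120 pairs of a member and a list. The macrophage list had an r of 0.91 with C3ar1 (rho 0.78, adjusted permutation p = 1.71e-04), 0.88 with Serping1 (rho 0.89, adjusted permutation p = 1.71e-04) and 0.76 with C3 (rho 0.67, adjusted permutation p = 0.00431). Leaving out the 2 tumors with the most extreme list level gave 0.82, 0.82 and 0.48. For the C1q chains the macrophage list had an r of 0.68, 0.61 and 0.70 for C1qa, C1qb and C1qc (rho 0.73, 0.62 and 0.69, adjusted permutation p of 0.0109, 0.0335 and 0.0100). Leaving out the 2 tumors with the most extreme list level gave 0.77, 0.73 and 0.78. Without cryoablation 2, 4 and 5 these were 0.70, 0.54 and 0.68, and within the 8 cryoablation tumors 0.96, 0.95 and 0.93.

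For each other member the list with the highest r is given, a choice made after the values were seen. C4b was closest to the interferon-gamma response list, with an r of 0.87 (rho 0.84, adjusted permutation p = 1.71e-04), and it stayed at 0.91 within controls and 0.83 within cryoablation tumors. Its r with the macrophage list was 0.43 (adjusted permutation p = 0.169). C3 and Serping1 were closest to the B cell list, at 0.87 and 0.91 (rho 0.84 and 0.89, adjusted permutation p = 1.71e-04 each), although that list was low, at 2.03 to 63.0 CPM in controls. For C3 the endothelium list was next, at 0.81 (rho 0.72, adjusted permutation p = 9.82e-04). C5ar1 was closest to the dendritic cell list at 0.81 (rho 0.75, adjusted permutation p = 0.00176), and this fell to 0.58 without the 2 most extreme tumors. The C1q chains were closest to the epithelial list, at 0.83, 0.78 and 0.79 (rho 0.81, 0.76 and 0.75, adjusted permutation p of 5.33e-04, 0.00111 and 0.00100), which is itself highest in cryoablation 2, 4 and 5. Without these tumors the values were 0.57, 0.55 and 0.58, and C1qa and C1qc were then closer to the macrophage list. Within controls the epithelial list gave 0.41, 0.32 and 0.40 and the macrophage list 0.67, 0.46 and 0.67.

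Single genes with the most similar pattern over the 17 tumors were also listed, 3 for each member, as a description. For C1qa they were Tyrobp (r = 0.98), Tmsb4x (0.98) and Cd52 (0.98), and for C1qb Trem2 (0.98), Crlf2 (0.97) and Coa4 (0.97). For C1qc they were Tyrobp (0.96), Crlf2 (0.96) and Ms4a7 (0.96). Tyrobp encodes the adaptor DAP12 of myeloid receptors, and Trem2 a lipid-sensing receptor of macrophages that signals through it. Only these among the genes closest to C1q are described here. The C1q chains also followed the length trend, and its part in these r values was not tested. For C3 they were Csf2rb2 (0.95), Dram1 (0.93) and Cxcl12 (0.92), and for Serping1 Cpxm1 (0.97), Cd302 (0.95) and Inpp5j (0.94). For C4b the closest were Gbp8 (0.89), Apol6 (0.89) and Ifi205 (0.89), of which Gbp8 is a guanylate-binding protein and Ifi205 an interferon-activated gene. For C3ar1 they were Slc15a3 (0.93), Laptm5 (0.92) and Arl5c (0.91), and for C5ar1 Epsti1 (0.96), Frmd4b (0.92) and Papss2 (0.92). Genes were ranked by r out of all genes tested, so high values arise among many and carry no test.

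Around the members, a wider list of 54 complement genes was counted, of which 53 are in the table and 32 passed the filter. By edgeR's quasi-likelihood test 1 was higher (Cfd) and 1 lower (Itgb2) after cryoablation at an unadjusted p under 0.05, beside 3.74% higher and 1.17% lower of all genes tested. None had an adjusted p under 0.05. The median log2 fold change of the 32 was -0.11, with 20 of them below 0, beside 6759 of all 13005 genes tested. In the classical pathway 4 of 7 tested genes had a positive estimate, the C1q chains and C2, while the C1 proteases C1ra and C1s1 were at -0.30 (SE 0.22) and -0.35 (SE 0.30). Of 9 receptors tested, 8 had a negative estimate, none of them but Itgb2 at an unadjusted p under 0.05, and C1qbp, a mitochondrial protein that binds C1q, was the exception at 0.11 (SE 0.10).

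Cfd encodes factor D, the protease that cleaves factor B and is made largely by fat cells. It was at 3.95 to 56.3 CPM in controls with a median of 10.8, and at 1.49 to 121 CPM after cryoablation with a median of 60.8. Of the cryoablation tumors, 4 were above every control, among them cryoablation 2, 4 and 5 at 121, 71.5 and 99.0 CPM, and 1 was below. On the log2 scale the fold change was 1.61 (SE 0.67, edgeR adjusted p = 0.728), and the difference of mean log2 CPM was 1.06 (exact permutation p = 0.236). The fold change was 0.70 (SE 0.73) without those 3 tumors, 1.10 (SE 0.59) with the length offset, 1.30 (SE 0.85) with a replicate block and 0.05 (SE 0.83) by limma voom, and its unadjusted p was under 0.05 in none of these 4 fits. The summed adipocyte list was at 89.4, 97.5 and 80.0 CPM in the same 3 tumors, against 14.6 to 60.2 CPM in controls. It ran from 15.8 to 119 CPM in the other cryoablation tumors, so its highest value lay outside those 3. The relation of this list to Cfd and its part in the Cfd level were not tested.

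Itgb2 encodes the beta chain shared by complement receptors CR3 and CR4. It was at 73.7 to 263 CPM in controls with a median of 151, and at 75.4 to 174 CPM after cryoablation with a median of 104, with 7 of 8 below the control median. Its log2 fold change was -0.49 (SE 0.22, edgeR adjusted p = 0.728), and it was -0.37 (SE 0.20) without control 4, -0.41 (SE 0.25) without cryoablation 2, 4 and 5 and -0.44 (SE 0.23) with a replicate block, none of which kept an unadjusted p under 0.05. The difference of mean log2 CPM was -0.45 (exact permutation p = 0.0752). Its partner chains Itgam and Itgax were at -0.31 (SE 0.26) and -0.17 (SE 0.25).

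**Figure D5:**
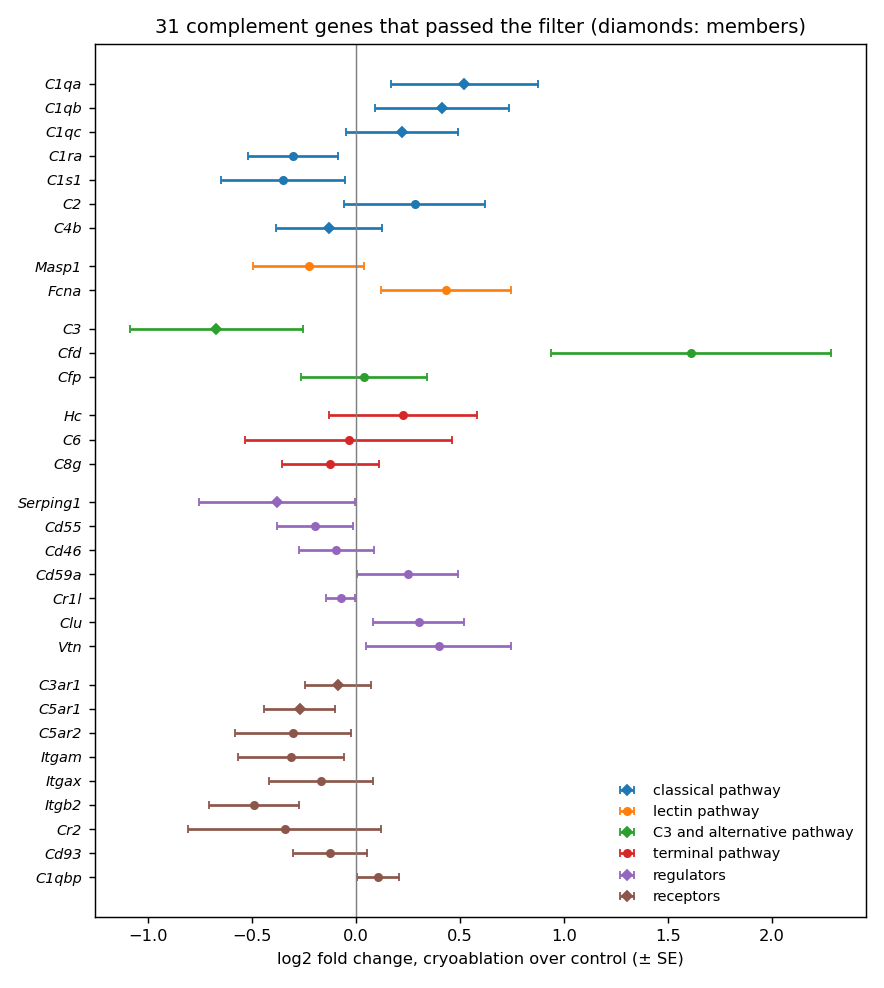
Log2 fold change, cryoablation over control, with its SE (bars) for 31 of the 32 complement genes that passed the filter, colored by role, with diamonds for the members. Cfd stands alone at 1.61, all 9 tested receptors are shown and 8 of them lie below 0, and all other estimates shown lie between -0.67 and 0.52.

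Of the genes in the wider list that did not pass the filter, 4 had 0 counts in every tumor: Mbl1 and Mbl2, the mannose-binding lectins, C8b of the membrane attack complex and C4bp, the C4b-binding protein. In all, 8 of 53 had at most 3 counts in every tumor. In the terminal pathway 3 of 7 genes passed the filter: Hc, which encodes C5, at a median of 2.60 CPM in controls, C6 at 2.50 CPM and C8g at 2.43 CPM. Properdin (Cfp), which steadies the alternative convertase, was at a median of 87.3 CPM in controls. Among the regulators 7 of 15 did not pass the filter.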

How the data were processed

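Distant MC38 tumors (9 control, 8 cryoablation) were grouped by the deposited labels. The authors captured mRNA on beads and sequenced it on a NovaSeq platform. They deposited for each gene a read count, not normalized, and FPKM, which equal the count scaled by gene length and total count (largest relative difference 5.22e-15) and were not used further. The aligner, counter and strandedness are not given in the sources used here. The processing notes name GRCm38 (mm10), yet start and end equal those of GENCODE M21 on GRCm38 for 512 genes of 21827 in common, and table positions are given without a build. RefSeq promoters are on GRCm38.p6.

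Counts were tested with edgeR 4.0.16 in R 4.3.3 (TMM, filterByExpr by group, quasi-likelihood F test, Benjamini-Hochberg over 13005 genes). SE is the log2 fold change over the square root of F. Log2 CPM used a prior count of 2. Exact permutation tests took all 24310 splits of 17 tumors into 9 and 8 (smallest p 4.11e-05), and correlations 100000 permutations, adjusted over 28 pairs since Cfb did not pass the filter (36 had been planned with it). Neighbouring levels were compared by an exact sign-flip test, adopted after the data were seen. The length trend of a tumor, as printed and correlated, is the slope of a straight line over log2 gene length. Where the trend was removed or entered as an offset, it was a natural spline with 4 degrees of freedom. Scripts were tested on simulated counts.

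The members and gene lists were chosen with earlier results of these data known. Named genes are the members, the 5 genes of the wider list with the smallest p (1 of which is not reported here), and the 3 genes closest to each member. Other genes of the wider list were named after their values were seen. Alternatives were DESeq2 1.42.0, limma 3.58.1 voom with quality weights, the exact test of edgeR, upper-quartile normalization, other filters, a replicate block, a length offset, and leaving out tumors. Same-numbered tumors did not pair: r of their deviations from the group means ran from -0.51 to 0.64.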

Additional observations from a re-analysis of the deposited data

Results flagged for a closer look

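The log2 ratio of C1qa over C1qb per kb was 0.79 in cryoablation 4 (a ratio of 1.73), far from the other 7 cryoablation tumors, whose ratios ran from 0.96 to 1.25. The gap to the next tumor was 0.547 of the range of the group. Of 22 sets of values tested in this way it was the only one past the limit, and chance passes about 1 in 20. The ratio of C1qb over C1qc in the same tumor, 2.08, was the lowest of all 17.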

How the results depend on the processing

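No tested member had an adjusted p under 0.05 under any alternative. At an unadjusted p under 0.05 the count was 1 of 8 by limma voom (Serping1 at -0.73), 0 to 1 when each tumor was left out (1 without cryoablation 7, where C1qa was 0.66), and 0 otherwise. In the wider list it was 4 by limma voom, 1 with the replicate block (neither Cfd at 1.30 nor Itgb2 at -0.44), 1 with the length offset, 0 without cryoablation 2, 4 and 5, and 0 to 3 when each tumor was left out (0 without cryoablation 5). Itgb2 lost its call in 7 of the 17 fits that left out a tumor. Cfd was 0.05 by limma voom. Without cryoablation 2, 4 and 5 signs turned for C1qa (-0.42), C1qb (-0.30) and C1qc (-0.36), as did those of their differences of mean log2 CPM (-0.44, -0.37 and -0.41), of C4b (0.0090) and of the log2 ratios of C1qa over C1qb (-0.073) and over C1qc (-0.030). By limma voom C1qa was 0.063, C1qb 0.16 and C1qc -0.0061. When each tumor was left out, C1qa ran from 0.28 to 0.66, C1qb from 0.16 to 0.55 and C1qc from 0.088 to 0.35. C3ar1 then ran from -0.18 to 0.026. With the length trend removed, chosen after seeing the data, the differences were -0.037 for C1qb, -0.032 for C1qc and 0.014 for C4b, the log2 ratio of C1qb over C1qc was -0.0052, and r with C4b was 0.20, 0.13 and 0.16 for C1qa, C1qb and C1qc. Within cryoablation tumors r was -0.0068 for C1qc with C3 and -0.050 for C3 with C3ar1, and within controls 0.10 for C1qc with C4b. Genes at an unadjusted p under 0.05 numbered 639 by edgeR, 881 by DESeq2, 1312 by limma voom (697 of them lower), 446 with the replicate block, 325 without cryoablation 2, 4 and 5, and 252 to 1388 when each tumor was left out. The replicate numbers are only shared names, since 2 of 8 cryoablation tumors correlated best with the control of their own number, and with the block C1qa was 0.27. The cause of these changes was not tested. Depth limits Cfb and the genes at or near 0, which have no fold change.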
